A study of Drosophila melanogaster with 14 samples.

Results

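The GstD cluster is a run of 10 neighboring genes, GstD1 to GstD10, that encode Delta class glutathione transferases. The members were taken by name from the Release 6 gene table, and all 10 of the 17802 genes with at least 1 measured fragment were found together on chromosome 3R between 12364776 and 12380815. From left to right the order is GstD10, GstD9, GstD1, GstD2, GstD3, GstD4, GstD5, GstD6, GstD7 and GstD8, in a span of 16.0 kb. The cluster as a whole was selected on its Pol II and Sox21a values in these same 3 tracks, so its levels are given as a description and no test was run on them.

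Glutathione transferases join the thiol of glutathione to reactive compounds, such as insecticides, plant toxins and products of lipid peroxidation, so that these can be removed. In flies many of their genes are induced through the TF CncC, the counterpart of mammalian NRF2, which is held back by Keap1. A reporter made from the GstD1 regulatory region is widely used to read CncC activity, including in midgut stem cells. GstD1 is the best studied member and can break down the insecticide DDT, and GstD3 lacks the start of the protein that carries the catalytic serine in its relatives.

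Targeted DamID was done in guts of adult *Drosophila* with Dam fusions expressed under a cell type driver. The esg driver placed Dam-Pol II in intestinal stem cells and enteroblasts (ISC/EBs) and the Myo1A driver placed it in enterocytes (ECs), with 2 samples of each and 2 samples of Dam alone for each driver. Dam-Sox21a, a fusion to a Sox family TF of ISC/EBs, was expressed under the esg driver in 3 samples, with 3 samples of Dam alone, which makes 14 samples in all. The esg driver marks stem cells and enteroblasts together, so these 2 cell types are not separated, and neither the labels nor the paper's text used here state the sex or age of the flies.

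Dam methylates GATC sites close to the DNA that the fused protein touches, so Pol II signal along a gene reads its transcription in the driver's cells. Each deposited track holds 1 value per GATC fragment, the log2 of fusion over Dam alone, as an average of the samples. A value of 1 thus stands for a signal 2-fold over Dam. Because only the averages were used, no spread between samples could be computed and the depth is unknown, so no difference below has a replicate check. An average over the driver's cells cannot tell fewer expressing cells from less Pol II per cell.

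The 2 populations were separated by their markers. All 5 ISC/EB markers examined (esg, Delta, mira, Sox21a and E(spl)mbeta-HLH) had a gene mean of at least 1 in ISC/EBs and none did in ECs. Of 6 EC markers, none reached 1 in ISC/EBs and 4 did in ECs, the exceptions being deltaTry at 0.39 and nub at 0.63. None of 5 enteroendocrine or 5 visceral muscle markers reached 1 in either population. The highest were the muscle marker how, with 0.83 in ISC/EBs, and the enteroendocrine marker Dh31, with 0.58 in ECs. The hemocyte markers Hml, NimC1 and He stayed between -0.28 and 0.03 in both populations, but crq had 2.58 and srp 1.01 in ISC/EBs, with 1.25 and 0.80 in ECs. The part of other cell types in the GstD values was not tested.

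The members fell into 3 sets by their Pol II levels. GstD2, GstD3 and GstD4 had high Pol II in ISC/EBs and EC means of -0.06 to 0.48. GstD9, GstD1 and GstD8 had high Pol II in both populations, and GstD10, GstD5, GstD6 and GstD7 had intermediate levels in both. The level of a gene is here its mean log2 ratio, in which every overlapping fragment counts by the bp it covers in the gene. The sets are a description of these means, and members share their neighborhood and in part their fragments.

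**Figure D1:**
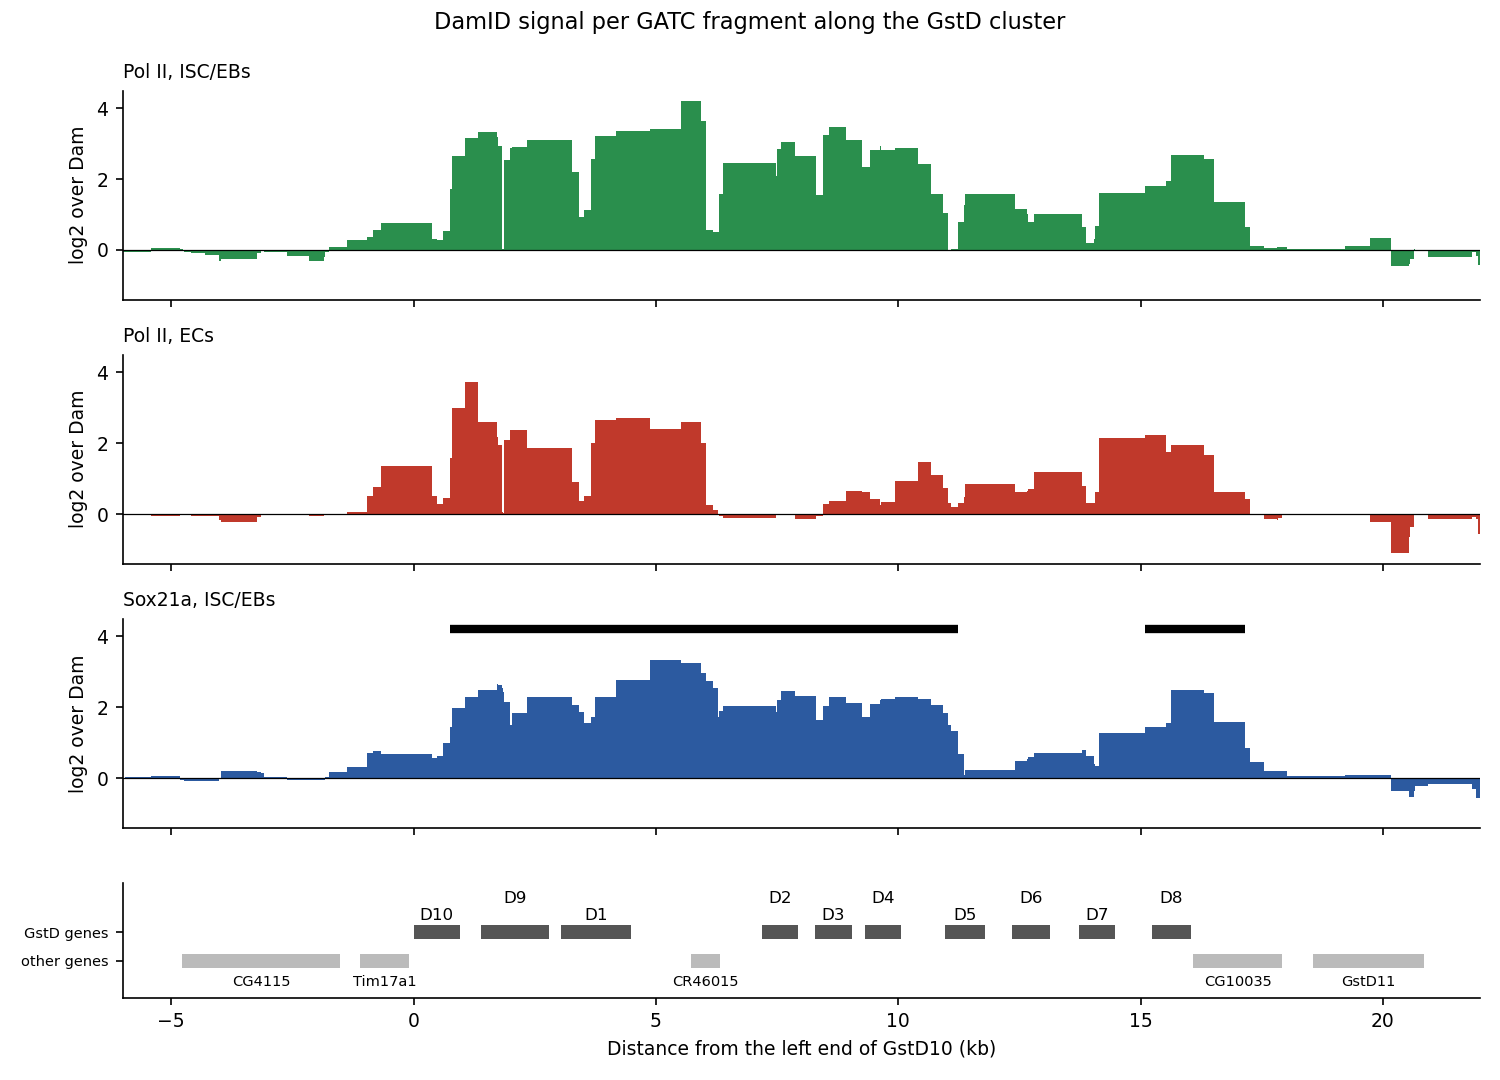
Log2 ratio over Dam (vertical axes) for each GATC fragment against the distance from the left end of GstD10 in kb, with Pol II in ISC/EBs, Pol II in ECs and Sox21a in ISC/EBs from top to bottom. Black bars mark the 2 Sox21a peaks, dark boxes the GstD genes (D1 to D10) and gray boxes other genes. GstD2, GstD3 and GstD4 have gene means of 2.74 to 3.004 in ISC/EBs, against -0.06 to 0.48 in ECs, whereas GstD9, GstD1 and GstD8 stand out in both populations.

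GstD2 had a mean of 2.74 in ISC/EBs and -0.06 in ECs, a difference of 2.80 (log2) or 6.97-fold. Its 5 fragments lay between 2.10 and 3.04 in ISC/EBs and between -0.13 and 0.01 in ECs. The difference ranked 51 among 17802 genes. GstD3, the member without the catalytic serine, had 3.004 in ISC/EBs, the highest mean of the cluster, and 0.30 in ECs. Its fragments ran from 1.56 to 3.47 in ISC/EBs and from -0.13 to 0.64 in ECs, and its difference of 2.70 (6.51-fold) ranked 65. In ISC/EBs GstD9 came above GstD3 in some settings. The values were 3.06 and 3.004 with fragments of at least 100 bp, and 2.99 and 2.86 with 500 bp added on each side.

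GstD4 had 2.77 in ISC/EBs and 0.48 in ECs, with fragments from 2.33 to 2.93 and from 0.26 to 0.93. Its difference of 2.29 (4.89-fold) ranked 121, the third of the cluster. All fragments of these 3 genes were higher in ISC/EBs. Adjoining fragments of an averaged track are not replicates, and the share of all genes with every fragment higher was not computed. GstD2 shares a fragment with GstD3, and GstD4 shares none with another gene.

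The excess in ISC/EBs was continuous across these genes and the DNA between them. A run of 15 consecutive fragments from 12371070 to 12375183, 4113 bp long, had differences of 1.61 to 3.12. Within it the ISC/EB values were 1.56 to 3.47 and the EC values -0.13 to 0.93. The run began inside lncRNA:CR46015, a noncoding gene between GstD1 and GstD2, and ended in the gap between GstD4 and GstD5. The gap between GstD2 and GstD3 had 2.66 in ISC/EBs, against -0.13 in ECs. The gap between GstD3 and GstD4 had 2.93 in ISC/EBs, against 0.64 in ECs.

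GstD9 and GstD1, which lie side by side, were high in both populations. GstD9 had 2.96 in ISC/EBs and 2.14 in ECs, a difference of 0.82 (1.77-fold). Its 9 fragments ranged from 0.03 to 3.34 in ISC/EBs and from 0.04 to 2.59 in ECs, a wide overlap. GstD1 had 2.71 in ISC/EBs and 1.96 in ECs, a difference of 0.76 (1.69-fold), and all of its 8 fragments were higher in ISC/EBs. The fragments ranged from 0.67 to 3.35 in ISC/EBs and from 0.35 to 2.71 in ECs. At the other end of the cluster, GstD8 had 2.27 in ISC/EBs and 2.03 in ECs over 3 fragments, and 1 of these was lower in ISC/EBs. The direction at GstD8 depended on a fragment shared with CG10035. With fragments of no other gene it had 1.84 in ISC/EBs and 2.10 in ECs, a difference of -0.26. The median difference over its fragments was -0.02.

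**Figure D2:**
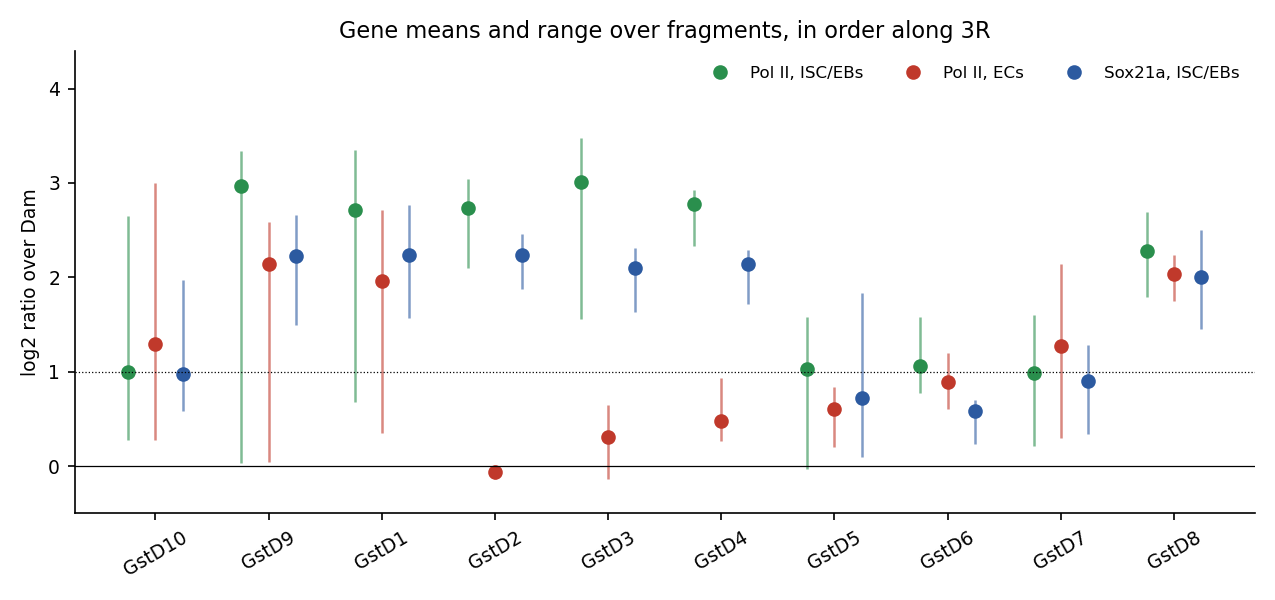
Mean log2 ratio over Dam (vertical axis) for the 10 GstD genes in their order along 3R, with Pol II in ISC/EBs, Pol II in ECs and Sox21a in ISC/EBs. Points are length-weighted gene means, lines run from the lowest to the highest fragment of the gene (not an error), and the dotted line marks 1. EC points of GstD2, GstD3 and GstD4 lie at -0.06, 0.30 and 0.48, and their ISC/EB points between 2.74 and 3.004.

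The other 4 members had ISC/EB means close to 1. GstD10 had 0.99 in ISC/EBs, against 1.29 in ECs. GstD7 likewise had 0.99 in ISC/EBs, against 1.27 in ECs. The size of these differences, -0.30 and -0.28, moved with the processing. Over the settings tried it ran from -0.82 (quantile normalized tracks) to -0.01 (fragments wholly inside the gene) at GstD10 and from -0.81 (quantile normalized tracks) to -0.04 (median over fragments) at GstD7. GstD6 had 1.06 in ISC/EBs, against 0.89 in ECs. GstD5 had 1.03 in ISC/EBs, against 0.60 in ECs. The mean of GstD10 covers uneven signal, since its fragments ran from 0.28 to 2.65 in ISC/EBs and from 0.28 to 3.004 in ECs, with the highest values at the end that faces GstD9. GstD5 had fragments from -0.03 to 1.58 in ISC/EBs and from 0.20 to 0.84 in ECs.

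In ISC/EBs 8 of the 10 GstD genes had a mean of at least 1, as did 29.4% of all genes. The count turns on small margins, because GstD5 and GstD6 lay just inside the limit (1.03 and 1.06) and GstD10 and GstD7 just outside (both 0.99). In ECs 5 of 10 reached 1, against 18.9% of all genes. The median of the members was 2.49 in ISC/EBs and 1.08 in ECs, and that of all genes 0.30 and 0.01. By this limit, 5 members reached 1 in ISC/EBs and not in ECs (14.2% of all genes), 3 reached it in both (15.1%), and GstD10 and GstD7 reached it in ECs and not in ISC/EBs (3.76%).

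A difference of at least 1 in favor of ISC/EBs was seen at 3 of 10 members, compared with 9.89% of all genes, and none had a difference of -1 or less, compared with 2.66%. The median difference was 0.59 for the members and 0.15 for all genes. The ISC/EB track has a wider spread over fragments than the EC track (SD 0.86 and 0.65), which widens differences. After quantile normalization of the 2 tracks, which moved the median difference of all genes by -0.15, GstD2, GstD3 and GstD4 kept differences of 2.45, 2.18 and 1.68. Those of GstD9 and GstD1 shrank to 0.16 and 0.12, and those of GstD5 (-0.06), GstD6 (-0.40) and GstD8 (-0.44) changed sign. GstD7 (-0.81) and GstD10 (-0.82) came to lie further below 0. Thus 5 members were higher in ISC/EBs after quantile normalization (48.8% of all genes), in place of 8 as deposited (65.3% of all genes).

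**Figure D3:**
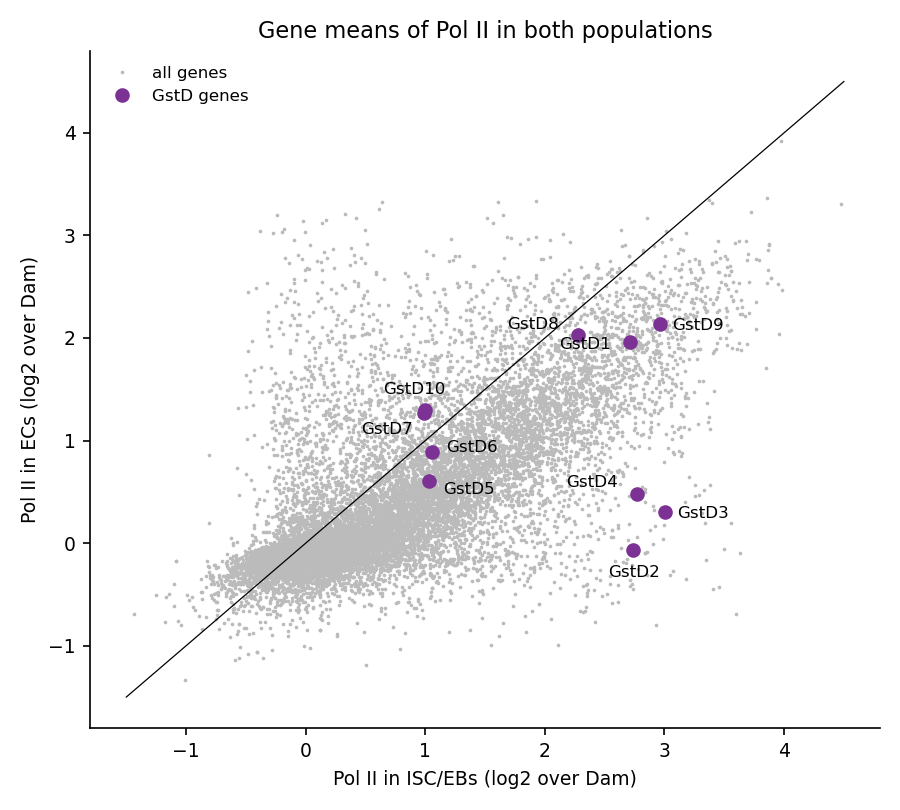
Gene means of Pol II in ISC/EBs (horizontal axis) and in ECs (vertical axis), both as log2 over Dam, for 17802 genes in gray and the 10 GstD genes in purple, with the line of equal values. GstD2, GstD3 and GstD4 lie far below the line, at EC values of -0.06 to 0.48, and the other members lie within 0.82 of it in the difference of the 2 means.

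Along the span, 64 GATC fragments, of which the median spans 140.5 bp, resolve the boundary between the sets. Of these, 45 (70.3%) had at least 1 in ISC/EBs and 24 (37.5%) in ECs, compared with 15.2% and 10.05% of all 383654 fragments. The highest ISC/EB value of the cluster, 4.21, was in none of the GstD genes. It came from a fragment of 429 bp that overlaps the left end of lncRNA:CR46015, which had 2.59 in ECs.

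To the right of that fragment both tracks dropped. The fragment from 12370820 to 12370962 had 0.55 in ISC/EBs and 0.24 in ECs. Beyond 12371070 the tracks parted, and the long fragment that leads into GstD2 had 2.47 in ISC/EBs and -0.11 in ECs. The gap between GstD4 and GstD5 had 2.33 in ISC/EBs and 1.13 in ECs. The highest EC value of the cluster, 3.74, lay between GstD10 and GstD9, in a fragment with 3.16 in ISC/EBs. That gap had a mean of 3.06 in ISC/EBs and 3.44 in ECs.

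In some fragments Pol II was lower than in the fragments around them. In GstD9, adjoining fragments of 22 and 20 bp had 0.03 and 0.04 in ISC/EBs and 0.06 and 0.04 in ECs, although Sox21a signal there was 2.53 and 2.44. In GstD5, the fragments from 12375809 to 12376020 had -0.03 and 0.03 in ISC/EBs and 0.31 and 0.20 in ECs. Delta class genes resemble each other in sequence, and the sources used here do not say how reads matching several members were placed. Values of single fragments and the split of signal between members are uncertain to that extent, and the part of read placement in these dips was not tested.

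The genes on either side of the cluster differed in Pol II. To its left, Tim17a1, which encodes a subunit of a mitochondrial import complex and shares a fragment with GstD10, had 0.62 in ISC/EBs, against 0.98 in ECs. CG4115 and a small noncoding RNA gene within it lay between -0.15 and -0.02 in both. To its right, CG10035 had 1.15 in ISC/EBs, against 0.64 in ECs, and shares a fragment with GstD8. The next gene is GstD11, a further Delta class gene outside the 10, and it had 0.00 in ISC/EBs, -0.25 in ECs and -0.05 for Sox21a. Sol1, the next gene after it, had 0.36 in ISC/EBs and 0.08 in ECs.

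Sox21a signal in ISC/EBs covered most of the cluster. A peak of the authors, called at an FDR below 0.01, ran from 12365521 to 12376020 over 10.5 kb and 45 fragments. It overlapped 7 members, from GstD10 to GstD5, together with lncRNA:CR46015. With a score of 3.03 (log2) it ranked 21 among 2769 peaks by score and 25 by length, where the median peak had a score of 2.21 and a length of 2418 bp. Another peak of 2065 bp with a score of 1.94 covered GstD8 and part of CG10035. GstD6 and GstD7 had no peak.

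**Figure D4:**
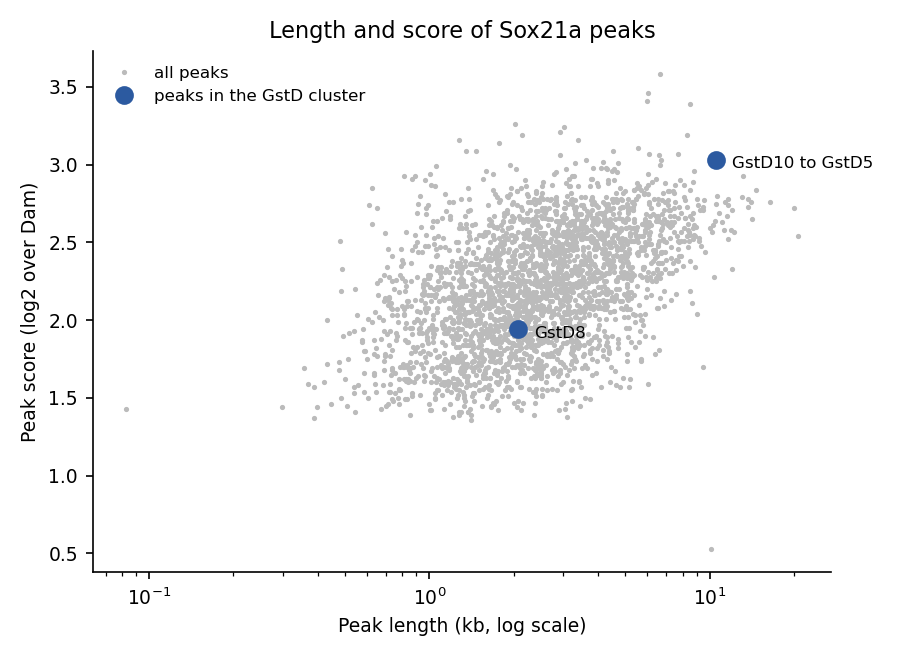
Score (log2 over Dam, vertical axis) against length (kb, log scale) of the 2769 Sox21a peaks, with the 2 peaks of the GstD cluster in blue. The peak from GstD10 to GstD5 lies among the longest and highest (10.5 kb, 3.03), and the peak at GstD8 is below the median score (1.94).

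Peaks thus overlapped 8 of the 10 members, compared with 17.4% of all genes. GstD9, GstD1, GstD2, GstD3, GstD4 and GstD8 lay wholly inside a peak, whereas 22.4% of GstD10 and 34.3% of GstD5 did. Neighbors under the same peak are not independent. DamID reads binding over whole fragments, so a peak of this length marks a region and does not place a site.

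The gene means of Sox21a were 2.003 to 2.23 over the 6 members wholly inside a peak and 0.58 to 0.97 over the other 4. Thus 6 of 10 had at least 1, compared with 14.1% of all genes. The peaks were called on this same Sox21a track, so higher means inside a peak follow from how peaks are found. GstD1, GstD2 and GstD9 had nearly equal means of 2.23 (ranks 150, 151 and 154 of 17802), and GstD6 had the lowest, 0.58. The order at the top changed with the setting. With unweighted means over fragments, GstD9 had 2.28 and GstD1 2.06. The same 6 members had ISC/EB Pol II of 2.27 to 3.004 and the same 4 had 0.99 to 1.06, while EC Pol II ranged from -0.06 to 2.14 in the 6 and from 0.60 to 1.29 in the 4. By these gene means the 2 ISC/EB tracks split the members in the same way, and both were made under the esg driver. The gap in Sox21a narrowed without shared fragments. With fragments of no other gene, Sox21a was 1.48 at GstD8, 1.22 at GstD5 and 1.16 at GstD10. Pol II in ISC/EBs was then 1.84, 0.47 and 1.14 at these genes.

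The strongest Sox21a signal was not in a GstD gene. The highest fragment, 3.33, lies between GstD1 and lncRNA:CR46015, from 12369650 to 12370285, and the next one has 3.24 and carries the highest Pol II value in ISC/EBs. lncRNA:CR46015 had a Sox21a mean of 2.86, which ranked 7 of 17802 genes, with 2.42 for Pol II in ISC/EBs and 1.34 in ECs. Over the drop in Pol II at 12370820 to 12370962 Sox21a remained at 2.75. The lowest Sox21a values of the span, 0.09 and 0.23, came over the right part of GstD5 and from there into GstD6, where Pol II in ISC/EBs was 1.28 and 1.58.

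Over the 64 fragments of the span, Sox21a and Pol II in ISC/EBs had a Pearson correlation of 0.64, and Sox21a and Pol II in ECs one of 0.29. Over all fragments the values were 0.78 and 0.52. Over the 10 gene means the correlations of Sox21a were 0.97 with ISC/EB Pol II and 0.10 with EC Pol II, and over all genes 0.82 and 0.59. Neighboring fragments and genes are not independent, the 10 gene means fall into the sets of 6 and 4 above, and the first pair of tracks shares its driver.

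No other glutathione or thiol gene examined had as large an excess of Pol II in ISC/EBs as GstD2, GstD3 or GstD4. Of 14 epsilon class genes, most lie in a cluster of their own on chromosome 2R. In ISC/EBs 13 of the 14 had a mean of at least 1 (29.4% of all genes), and in ECs 11 did (18.9%). Their medians were 2.14 and 1.79. Their differences ran from -0.59 at GstE4 and -0.45 at GstE8 to 1.03 at GstE2 and 1.37 at GstE1. Of these, 2 of 14 were at least 1 (9.89% of all genes). Peaks of Sox21a overlapped 9 of 14 (17.4% of all genes). GstE9 had the highest ISC/EB mean of the class, 3.18, with 3.02 in ECs.

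Of 14 other glutathione transferase genes listed, 13 were measured under their own symbol. Of the 13, 10 reached 1 in ISC/EBs (29.4% of all genes) and 9 in ECs (18.9%). Their differences ran from -0.75 at GstT4, a theta class gene, and -0.46 at Mgstl, which encodes the microsomal enzyme, to 0.82 at GstS1 and 0.98 at GstT1. None was at least 1 (9.89% of all genes).

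**Figure D5:**
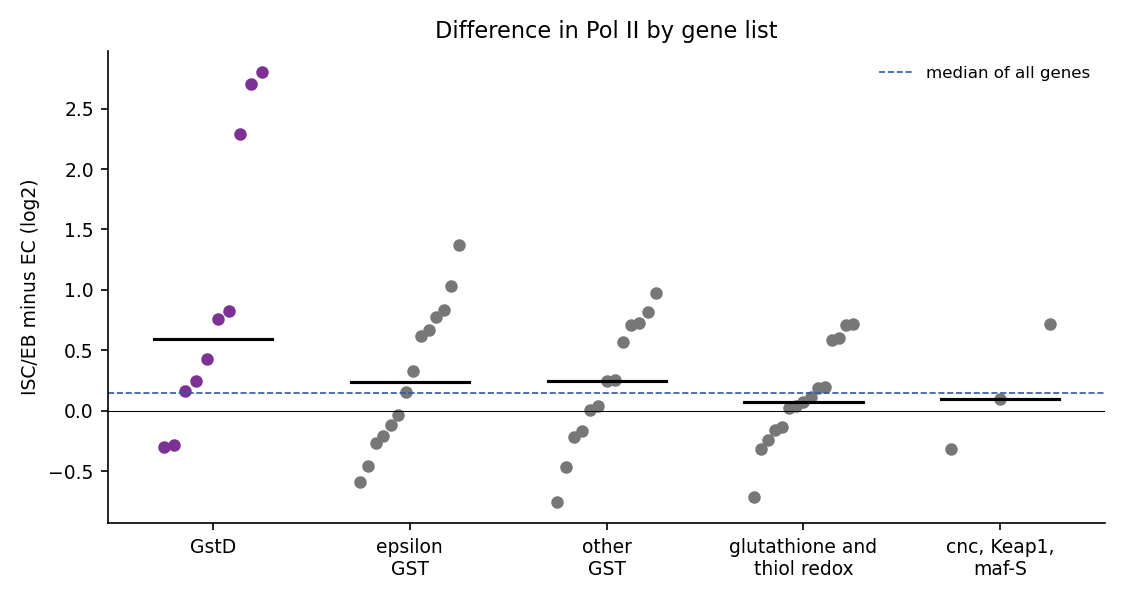
Difference in mean Pol II, ISC/EB minus EC (log2, vertical axis), for each gene of 5 lists, with the list medians as black bars and the median of all genes (0.15) as a dashed line. GstD2, GstD3 and GstD4 stand at 2.29 to 2.80, and the highest gene of the other lists is GstE1 at 1.37.

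Genes of glutathione synthesis and thiol redox control had medians of 1.30 in ISC/EBs and 1.37 in ECs. Their differences ran from -0.71 at Ggt-1 and -0.32 at Prx6a to 0.71 at Prx2 and 0.72 at TrxT. Of these 15 genes, 9 reached 1 in ISC/EBs (29.4% of all genes) and 10 in ECs (18.9%). Gclc and Gclm, the catalytic and modifier subunits of the first enzyme of glutathione synthesis, had 1.11 and 2.65 in ISC/EBs and 1.24 and 2.89 in ECs. All 3 regulators reached 1 in both populations (15.1% of all genes). cnc, which encodes CncC, had 1.03 in ISC/EBs and 1.35 in ECs, Keap1 had 1.94 and 1.84, and maf-S, the small Maf partner, had 2.43 and 1.72.

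The genes most like GstD1 over the 3 tracks lay elsewhere in the genome. Among 12427 genes with at least 5 fragments outside the cluster, the 5 with the smallest Euclidean distance of their gene means were asRNA:CR44806 (0.07), CG15673 (0.13), CG11791 (0.24), cag (0.25) and CG18748 (0.26). All 5 overlapped a Sox21a peak, and Sox21a signal was one of the 3 values that chose them.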

How the data were processed

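The tracks were analyzed as the authors deposited them, as log2 ratios of Dam fusion to Dam alone per GATC fragment, averaged over samples, with peak scores on the same log2 scale. Gut DNA was digested with DpnI, which cuts methylated GATC, then PCR amplified and sequenced. The sources used here name no aligner, scaling between libraries or peak caller, and depth per sample is unknown. The FDR of each peak, also deposited by the authors, was not used.

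Genes were those of the Release 6 table, which has no strand or exons. Fragments ended within the range of Release 6 on every chromosome arm (3R, last fragment at 32078853 and last gene at 32068441). A gene or difference was counted at 1 or more (log2), a limit of 2-fold that is not a test. A peak was assigned to a gene on an overlap of at least 1 bp. Delta stands for Dl and Gtpx for PHGPx, and GstO4 had no entry of its own.

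Genes named are the 10 members, genes between them, the 3 nearest on each side, the 5 nearest to GstD1 over 3 tracks, the cell type markers, and the 2 genes at each end of fixed lists. Other list genes named were chosen after their values were seen. Members and lists were chosen with earlier results of these data known. Other settings changed the weights, fragments, gene bounds, limits, track scaling and peaks. Gene means and quantile normalization were tested on simulated data, and peak overlap was checked against a count of bases with the deposited peaks. Python 3.11.15, numpy 2.4.6, pandas 2.3.3 and matplotlib 3.10.9 were used.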

Additional observations from a re-analysis of the deposited data

How the results depend on the processing

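In no setting did a member with a difference of at least 1 change direction or fall below the limit, and GstD2, GstD3 and GstD4 were at or above it in all. Of 380 values of single members under other settings, 338 stayed on the same side of the limit, 25 came to lie above it and 17 below it. For 10 of the 25 and 4 of the 17, only the limit was moved, to 0.5 or 1.5, and the value was unchanged. The count of members at 1 or more in ECs, 5 as reported, was 3 with medians over fragments (16.0% of all genes). It was also 3 with fragments wholly inside the gene (19.5% of the 14805 genes measured) and at a limit of 1.5 (9.90%). It was 6 with quantile normalized tracks (24.4% of all genes) and with tracks scaled to equal SD (21.8%). At a limit of 0.5 it was 7 (30.5%). With a limit of 0.5, 5 members differed in favor of ISC/EBs (29.2% of all genes) and 10 reached it for Sox21a (28.1%). The count in ISC/EBs was between 6 and 10. It was 6 with quantile normalized tracks (23.7% of all genes), with tracks scaled to equal SD (26.1%) and at a limit of 1.5 (18.3%). It was 10 at a limit of 0.5 (43.5%) and with 500 bp added on each side of the gene (31.6%). The count under a Sox21a peak was between 6 and 9, and the share of all genes was not computed for the other peak settings. With the tracks scaled to equal SD, 6 of 10 members were higher in ISC/EBs (61.2% of all genes). No paired analysis was possible because the tracks are averages over the numbered samples, and for the same reason no sample could be left out.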

Other observations

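Short GATC fragments were found in several members. The window of 20 to 22 bp was chosen after the values of the members were seen, so the comparison with other genes is not a test. Such a fragment was found in 7 of the 10 GstD genes (all but GstD10, GstD3 and GstD8). The share was 5.65% of the 6783 genes that have 3 to 9 fragments, as the members do. In GstD2, GstD4, GstD6 and GstD7 the short fragment began 283, 309, 300 and 314 bp from the left end of the gene. In GstD1 and GstD5 it began at 363 and 396 bp, and in GstD9, which has 3, at 337, 432 and 454 bp. Left ends are by coordinate, since strand was not known. Pol II in ISC/EBs over the fragments of GstD2, GstD4, GstD6 and GstD7 was 2.10, 2.93, 1.02 and 0.31, and in ECs 0.01, 0.26, 0.65 and 0.30. Related genes can share GATC sites through common sequence, which was not examined here.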
